A study of Mus musculus with 3 samples.

Results

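Heat shock proteins and their J-domain (DNAJ) cochaperones were followed here in chromatin-associated RNA of mouse macrophages. The members were the genes with at least 1 protein_coding transcript whose symbol begins with Hsp or Dnaj, Hspg2 left out because it encodes a matrix proteoglycan. They numbered 74 (29 Hsp and 45 Dnaj symbols) of 21901 genes with such a transcript and of 55536 annotated genes. Bone-marrow-derived macrophages of the C57BL/6J strain had received Lipid A, the toll-like receptor 4 agonist of bacterial lipopolysaccharide, at 100 ng/ml for 12 h, a washout of 12 h, and Lipid A again at 100 ng/ml for 60 min. Chromatin-fraction RNA was depleted of ribosomal RNA and sequenced as total RNA in 3 libraries, replicates 1, 2 and 3, made from 1000, 250 and 500 ng of RNA. There was 1 group and no untreated arm, so the values are levels after a repeated dose and not responses to it. The labels give all 3 replicates the same donor entry, do not say whether they are separate animals or cultures, and record neither sex nor age. P-values therefore measure only the spread between these samples, which may be technical.

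Heat shock proteins are molecular chaperones. HSP70 proteins bind exposed hydrophobic stretches of clients in a cycle driven by ATP, DNAJ proteins bring clients and trigger hydrolysis through their J domain, and HSP110 and other exchange factors release the nucleotide. HSP90 proteins complete the folding of kinases and receptors, the HSP60 and HSP10 chaperonin folds proteins inside mitochondria, and small heat shock proteins hold unfolded clients without ATP. Some members are made constantly, and others are induced by heat shock factor 1 (HSF1) through heat shock elements, runs of inverted GAA units in promoters. In macrophages, the ER member GRP94 is known for folding toll-like receptors, including the one that senses Lipid A.

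The gene tables held 12602702, 17222239 and 17042691 expected counts in replicates 1, 2 and 3, and the members took 0.213%, 0.224% and 0.178% of them. Counts differed by a chi-square of 68.6 to 115 per gene between libraries, so none was another deposited again. All 10 macrophage marker genes had at least 10 TPM (a level per transcript length, scaled to the library) in every library, and 6 of 6 neutrophil and 5 of 5 T- and B-cell markers had at most 3 counts in each. Replicate 2 stood apart: the summed count of 11 stromal genes (collagens, Dcn, Fn1 and others) was 5, 49841 and 117 in replicates 1, 2 and 3, and 11 of 11 were highest in replicate 2. In bulk RNA, fewer cells of a type and less RNA per cell cannot be told apart.

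Promoter letters are shown first for the members that later results turn on: the inducible HSP70 pair, the small heat shock protein Hspb1, the 2 DNAJ genes with the highest level among those holding the motif, and the promoter shared by the chaperonin genes. Sequences are from RefSeq promoter windows (250 bases before to 50 after a transcription start, build GRCm38.p6). Capitals mark the GAA and TTC units of GAANNTTC or TTCNNGAA, a pair of inverted units. Both words are their own reverse complements, so a search of one strand covers both, and overlapping hits were counted.
Hspa1a and Hspa1b: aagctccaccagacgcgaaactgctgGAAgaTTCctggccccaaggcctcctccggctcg
Hspb1: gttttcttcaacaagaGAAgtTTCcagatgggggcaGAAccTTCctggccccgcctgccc
Dnajb6: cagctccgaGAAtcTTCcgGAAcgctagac
Dnaja1: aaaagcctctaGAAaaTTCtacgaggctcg
Hspe1: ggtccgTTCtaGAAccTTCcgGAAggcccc
The first sequence is the minus strand of chr17:34972227-34972286 at Hspa1a and of chr17:34959309-34959368 at Hspa1b; all 60 bases shown were identical between the genes, and the motif began 104 bases before the start of each. The Hspb1 stretch is the plus strand of chr5:135887786-135887845, with motifs at -117 and -97. The Dnajb6 stretch is the plus strand of chr5:29735843-29735872, with motifs at -46 and -41. It lies within exons of another, longer Dnajb6 transcript and of Gm5129 on the other strand. The Dnaja1 stretch is the plus strand of chr4:40722333-40722362, with 1 motif at -124, and lies within exons of another Dnaja1 transcript and of Gm6297 on the other strand. The Hspe1 stretch is the plus strand of chr1:55088053-55088082, with motifs at -89, -84 and -79, and it lies in an exon of Hspd1, which runs the other way.

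Of the 74 members, 60 had a promoter window in the table, and 16 of those 60 (26.7%) held the 2-unit motif in at least 1 window, against 17.0% of 27025 genes in the table. The longer element of 3 alternating units was in 4 members, Hspd1, Hspe1, Hsph1 and Dnajb6, and in 0.662% of genes. Members with the motif did not form a high group: their mean levels ran from 0 to 166 TPM with a median of 2.72 TPM, against 0 to 89.4 TPM and a median of 3.00 TPM in the 44 members without it. The 14 members with no window, among them Hspa8, Hspa9, Hsp90ab1 and Hsp90aa1, are left out of these levels. These letters describe the sequence and say nothing of whether HSF1 was bound.

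Dnajb6, Hspa8, Hspa9, Dnajc7 and Dnajc13 headed the list, and the 10 highest members held 70.2% ± 3.8 of the members' summed TPM (SD, n = 3). At least 10 TPM in every library was reached by 18 of 74 members (24.3%), against 16.8% of genes with a protein_coding transcript. At least 1 TPM in every library was reached by 46 members (62.2%), against 39.1% of those genes. Both counts were the same without replicate 2. That library was the lowest for only 3 of the 57 members with a mean of at least 1 TPM. Leaving it out could therefore hardly change a count that asks for every library. Detected with over 3 expected counts in some library were 66 members, and 8 were not: Dnajb8, Dnajc5b, Dnajc5g, Dnajc6, Dnajc22, Hspb2, Hspb3 and Hspb7. The members' median level was 2.35, 4.38 and 2.81 TPM in replicates 1, 2 and 3, against 0.26, 0.96 and 0.30 TPM over all genes with a protein_coding transcript.

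**Figure D1:**
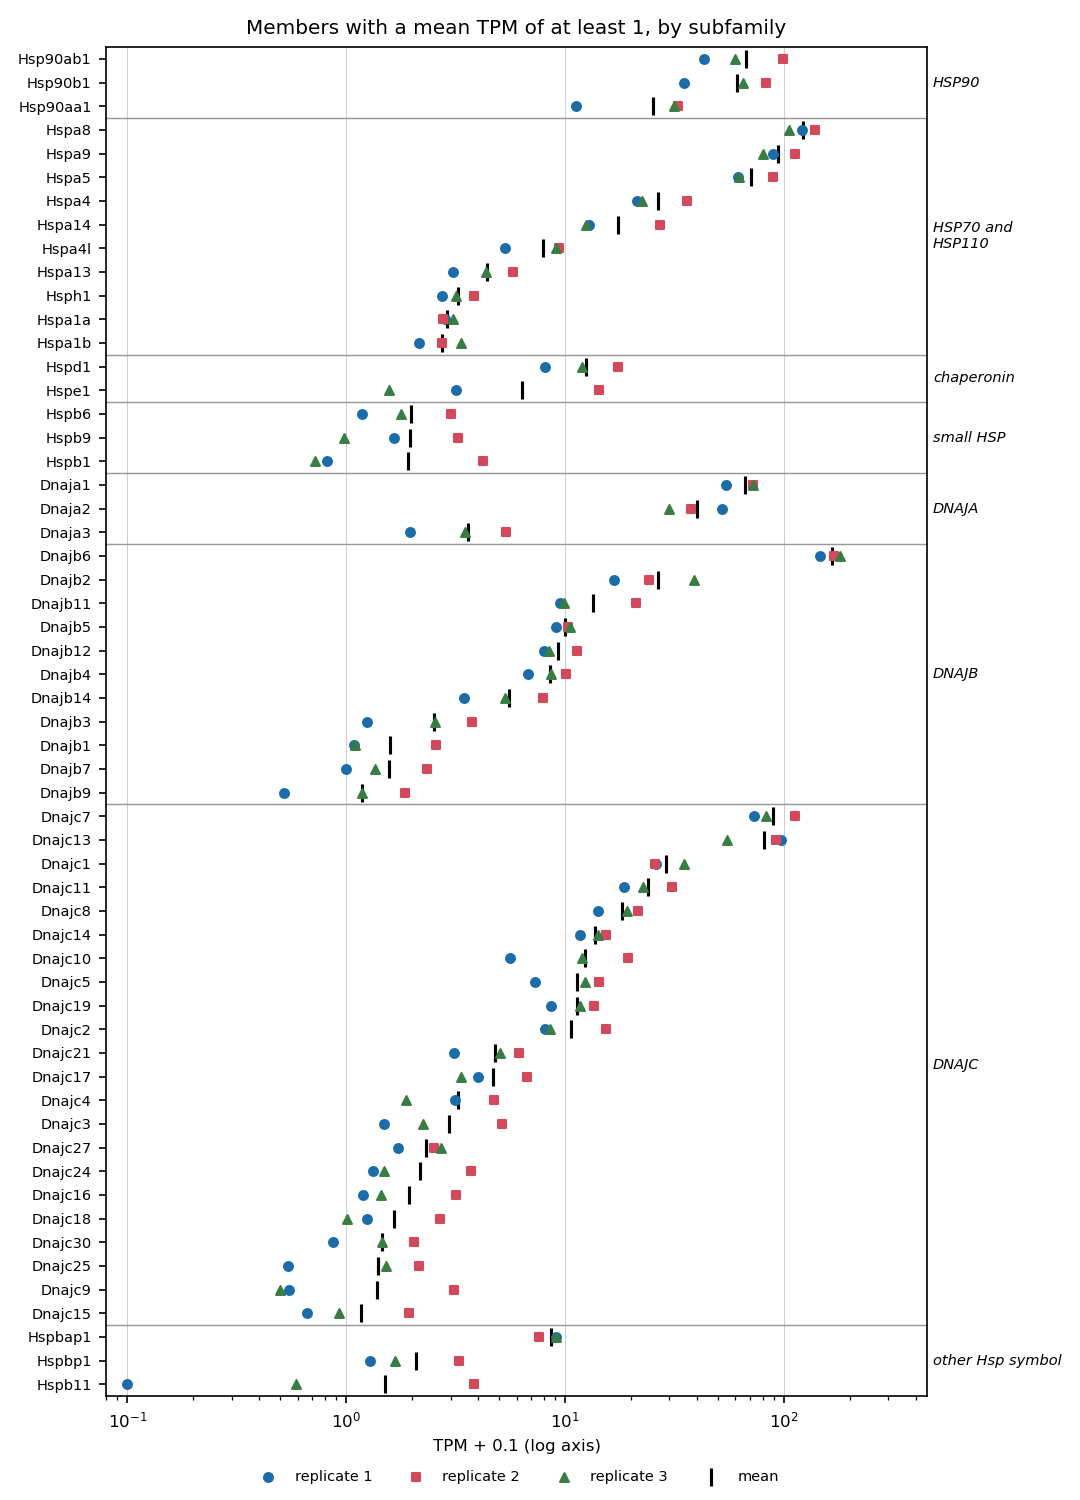
TPM + 0.1 on a log axis for the 57 members with a mean of at least 1 TPM, grouped by subfamily, with a symbol for each of the 3 libraries and a bar at the mean. The means of 10 members of the HSP90, HSP70, DNAJA, DNAJB and DNAJC subfamilies, from Dnajb6 to Dnaja2, lie above 30 TPM, small heat shock proteins lie below 5 TPM, and replicate 2 is the rightmost symbol for 46 of the 57.

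All 3 HSP90 genes were above 10 TPM in every library and took 12.2% ± 3.1 of the members' TPM. Hsp90ab1, the constitutive cytosolic form, had 43.2, 99.4 and 59.5 TPM in replicates 1, 2 and 3. Hsp90b1, the ER form GRP94, had 34.9, 83.1 and 64.6 TPM. Hsp90aa1, the cytosolic form that heat shock induces, had 11.1, 32.7 and 31.4 TPM. All 3 were highest in replicate 2 and lowest in replicate 1. Both places were common among the 9994 genes with a protein_coding transcript and a mean of at least 1 TPM. Of those, 77.1% were highest in replicate 2 and 6481 were lowest in replicate 1. The highest Hsp90aa1 gene TPM was below the lowest of each of the others. In the second quantification, described further on, Hsp90aa1 reached 48.5 TPM in replicate 3, above the 42.2 TPM of Hsp90b1 in replicate 1.

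The HSP70 and HSP110 genes (14 members, none undetected) took the largest share of any subfamily in each library, on average 28.8% ± 2.4. DNAJC genes were close behind, with 25.5% against 26.3% in replicate 3. This rank did not hold in the second quantification, described further on, where DNAJC genes summed to a higher level. In the gene TPM, 5 of the HSP70 and HSP110 genes reached 10 TPM in every library. Hspa8 (chr9:40800984-40810087), the constitutive cytosolic HSC70, had 121, 139 and 105 TPM in replicates 1, 2 and 3. Hspa9, the mitochondrial mortalin, had 88.7, 113 and 80.1 TPM. Hspa5, the ER chaperone BiP, had 61.7, 88.7 and 62.2 TPM. These cytosolic, mitochondrial and ER forms kept the same order of gene TPM in every library. Hspa9 exceeded Hspa8 in replicates 2 and 3 of the second quantification, described further on. It had 122 and 93.0 TPM there, against 87.0 and 72.0 TPM of Hspa8. In protein_coding models alone, Hspa5 lay above Hspa9 in every library.

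Hspa4, an HSP110-type exchange factor, had 21.1, 36.0 and 22.4 TPM in replicates 1, 2 and 3. Hspa14, a ribosome-associated member, had 12.7, 27.1 and 12.3 TPM. Hspa4l (mean 7.84 ± 2.29 TPM), Hspa13 (4.30 ± 1.36 TPM) and the HSP110 gene Hsph1 (3.16 ± 0.55 TPM) were lower (SD, n = 3 each). Both Hspa4 and Hspa14 were highest in replicate 2, with the other two libraries close together.

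The inducible HSP70 genes Hspa1a (chr17:34969190-34972156) and Hspa1b were at low levels with little spread in TPM. Hspa1a had 2.72, 2.66 and 2.99 TPM in replicates 1, 2 and 3. Hspa1b had 2.05, 2.65 and 3.25 TPM. Both are single-exon genes, and their longest coding transcripts were 98.8% identical over 2249 aligned bases, with 47.1% of the 100-base windows of Hspa1a found unchanged in Hspa1b. Reads from such stretches can be split between the pair only by estimation, so the sum is safer than either value. No 100-base window of Hspa1a was found in Hspa8.

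The remaining HSP70 genes were below 1 TPM in every library. Hspa12b had 0.27, 0.88 and 0.07 TPM in replicates 1, 2 and 3. Hspa2, a testis-type gene, had 0.14, 0.70 and 0.15 TPM. Hspa12a had 0.01, 0.49 and 0.03 TPM, from counts of 1, 23 and 2. These 3 were highest in replicate 2, while Hspa1l averaged 0.273 TPM and was highest in replicate 1.

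The mitochondrial chaperonin genes share a divergent promoter on chromosome 1 and overlap there by 112 bases. Hspd1 (HSP60) had 7.98, 17.3 and 11.9 TPM in replicates 1, 2 and 3. Hspe1 (HSP10) had 3.06, 14.2 and 1.46 TPM, from counts of 33, 102 and 14. Hspe1 thus varied widely between replicates 2 and 3, and its coefficient of variation, 1.11, was the highest of members with a mean of at least 5 TPM. It is short, and the strand setting of the counting is not given in the sources used here, so reads in the overlap cannot be assigned with certainty.

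Small heat shock proteins were at the bottom: 3 of 7 were undetected, and the 7 together took 0.327%, 0.785% and 0.276% of the members' TPM in replicates 1, 2 and 3, or 0.301% on average without replicate 2. Hspb1, the actin-protecting HSP27, had 0.72, 4.10 and 0.62 TPM in replicates 1, 2 and 3. Hspb6 had 1.08, 2.91 and 1.67 TPM. Hspb9 had 1.55, 3.14 and 0.88 TPM. Hspb8, the partner of the exchange factor Bag3, had 0, 22 and 0 counts, a signal in replicate 2 alone. A count of 0 allows as much as 0.238 CPM in replicate 1 and 0.176 CPM in replicate 3, CPM being a count relative to all counts of its library (3 counts taken as the limit, counting error only). Cryab, a small heat shock protein outside the symbol rule, had 0, 60 and 0 counts in the same order. Hspb2, Hspb3 and Hspb7, known from muscle, had at most 2 counts in any library.

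Among DNAJA genes, cytosolic cochaperones of HSC70 were high. Dnaja1 had 54.3, 72.2 and 72.5 TPM in replicates 1, 2 and 3. Dnaja2 had 52.2, 37.7 and 29.7 TPM, so the 2 genes were nearly equal in replicate 1 and apart in replicates 2 and 3. Dnaja3, the mitochondrial Tid1, had 1.86, 5.25 and 3.38 TPM and shares 39789 bases with Coro7, which averaged 181 TPM. Dnaja4, the lowest detected DNAJ gene, had counts of 0, 32.1 and 3.58.

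Among the 13 DNAJB genes, Dnajb6 (chr5:29735688-29818134), a suppressor of protein aggregation, stood first of all members, with 147, 170 and 181 TPM in replicates 1, 2 and 3, and 318th of all genes with a protein_coding transcript. Its lowest value exceeded the highest of the next member, Hspa8. That was the only such gap among the 20 highest members and their next neighbours: every other adjacent pair overlapped in range. On the TPM scale, Dnajb6 was also among the steadiest members with a mean of at least 5 TPM. Its coefficient of variation of 0.107 exceeded only those of Dnajb5 (0.0827) and Hspbap1 (0.101). In CPM, which is not per length, each of these genes was lowest in replicate 2 and less steady. Dnajb6 had 207, 140 and 179 CPM in replicates 1, 2 and 3. Dnajb5 had 46.3, 30.4 and 36.6 CPM, and Hspbap1 45.3, 24.9 and 33.6 CPM, in the same order.

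Dnajb2 had 16.6, 24.1 and 38.8 TPM in replicates 1, 2 and 3. Dnajb11, the secreted BiP cochaperone of the ER, had 9.38, 20.9 and 9.80 TPM. Dnajb1, the heat-inducible HSP40, had 0.99, 2.48 and 1.00 TPM. Dnajb1 thus lay below the members' median of each library, while its family member Dnajb6 was the highest. Of the ER-membrane pair, Dnajb12 averaged 9.19 ± 1.83 TPM and Dnajb14 5.47 ± 2.24 TPM (SD, n = 3 each). The ER-stress gene Dnajb9 averaged 1.08 ± 0.67 TPM (SD, n = 3).

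The DNAJC genes were the most numerous: 6 of 28 reached 10 TPM in every library and 4 were undetected. Dnajc7, whose tetratricopeptide repeats bind both HSP70 and HSP90, had 72.8, 113 and 82.6 TPM in replicates 1, 2 and 3. Dnajc13, the endosomal RME-8, had 96.8, 92.1 and 54.8 TPM. Dnajc1, an ER-membrane protein, had 26.0, 25.7 and 34.8 TPM, and 16735 bases of it overlap Mllt10. Dnajc7 and Dnajc13 overlapped in range and lay well above the other DNAJC genes.

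Dnajc11, a mitochondrial membrane protein, averaged 23.9 ± 6.2 TPM, the splicing-associated Dnajc8 18.2 ± 3.8 TPM and Dnajc14 13.6 ± 1.8 TPM (SD, n = 3 each). Dnajc10, the ER reductase ERdj5, had 5.49, 19.2 and 11.9 TPM in replicates 1, 2 and 3. The 33 DNAJ genes below the 12 highest averaged 11.2 TPM or less, and the lowest detected were Dnaja4 (0.323 TPM), Dnajc28 (0.397 TPM, or 0.24 TPM without replicate 2) and Dnajb13 (0.727 TPM). Undetected Dnajc6 is auxilin, which uncoats clathrin vesicles in neurons; its widely used relative Gak, outside the symbol rule, averaged 65.8 ± 14.3 TPM (SD, n = 3).

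Of the 3 other Hsp symbols, Hspbap1, a binding partner of small heat shock proteins, averaged 8.50 ± 0.85 TPM. Hspbp1, an HSP70 exchange factor, averaged 1.98 ± 1.06 TPM. Hspb11, an intraflagellar transport protein despite its symbol, had counts of 0, 19 and 6 in replicates 1, 2 and 3.

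Some pairs set a member over a heat-inducible relative within each library. Hsp90ab1 exceeded Hsp90aa1 in 3 of 3 libraries, with a mean log2 ratio of 1.495 ± 0.526. Hspa8 exceeded the sum of Hspa1a and Hspa1b in 3 of 3, with log2 ratios of 4.66, 4.71 and 4.08 in replicates 1, 2 and 3, or 22.4-fold on average. Dnaja1 exceeded Dnajb1 in 3 of 3, with a mean log2 ratio of 5.61 ± 0.67. Each of these was larger than its SD over libraries. These ratios were of whole genes, and those over the inducible HSP70 pair and over Dnajb1 were smaller in protein_coding models. There Hspa8 had 50.9, 84.7 and 46.55 TPM in replicates 1, 2 and 3, against 4.77, 5.31 and 6.24 TPM for the pair. Dnaja1 had 13.65, 16.1 and 12.9 TPM there, against 0.99, 2.48 and 1.00 TPM for Dnajb1.

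The other pairs compared organelle forms, or Dnaja2 with Dnaja1. Hspa5 was below Hspa9 in 3 of 3 libraries, with a mean log2 ratio of -0.41 ± 0.10. This held for whole genes only. In protein_coding models, Hspa5 had 35.3, 65.6 and 45.1 TPM in replicates 1, 2 and 3, and Hspa9 33.9, 48.5 and 34.6 TPM. Hspa5 over Hsp90b1, both of the ER, gave 0.82, 0.09 and -0.06 in replicates 1, 2 and 3, so the direction differed between libraries. Dnaja2 over Dnaja1 averaged -0.76 ± 0.64. Their protein_coding models went the other way, with 22.4, 24.9 and 21.7 TPM for Dnaja2 against 13.65, 16.1 and 12.9 TPM for Dnaja1. Hspd1 over Hspe1 averaged 1.57 ± 1.38 with a range of 0.29 to 3.03, or 0.84 without replicate 3. That direction, and those of the pairs with a heat-inducible form, held in protein_coding models. In the exact two-sided sign-flip permutation test, 6 of the 7 pairs gave p = 0.25 (adjusted p = 0.292 over 7 pairs), the smallest p that 3 libraries allow, and Hspa5 over Hsp90b1 gave p = 0.5. No ratio could pass a threshold of 0.05 in this design. The direction of Hspd1 over Hspe1 turned with the other quantification, described further on.

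**Figure D2:**
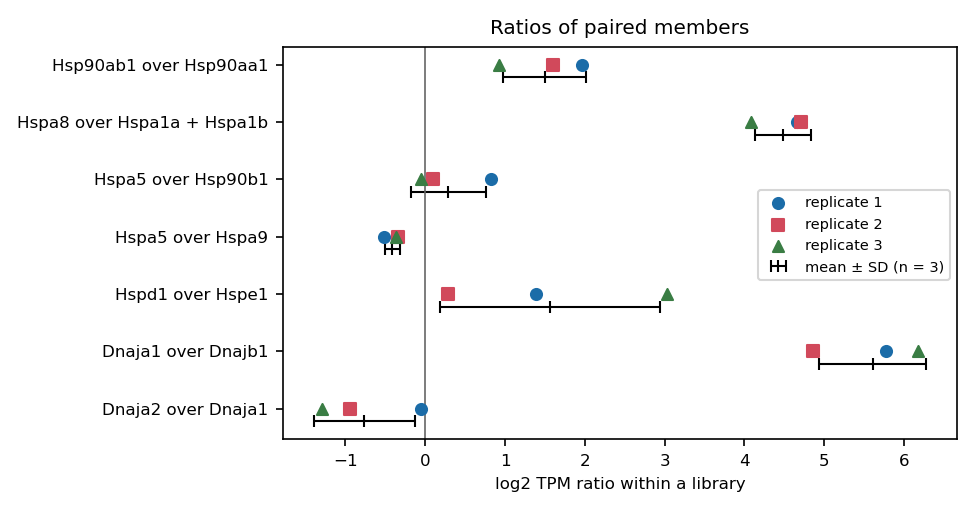
Log2 ratio of TPM between paired members within each library, with a symbol per library and the mean ± SD (n = 3) under it. The Hspa8 and Dnaja1 ratios lie above 4 in all libraries, and the Hspa5 over Hsp90b1 symbols fall on both sides of 0.

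Most members were highest in replicate 2 on the TPM scale. Of the 57 members with a mean of at least 1 TPM, 46 (80.7%) were highest in replicate 2, against 77.1% of 9994 genes with a protein_coding transcript and such a mean. The median coefficient of variation was 0.388 for members and 0.350 for those genes. With CPM scaled by edgeR's TMM factors instead, 30 of the 57 members (52.6%) were highest in replicate 2, against 43.5% of the 9994 genes. On that scale replicates 1 and 3 were highest for 26.3% and 30.2% of the 9994 genes. The stromal sum given above was also highest in replicate 2, and its part in these levels was not tested. Members far higher in replicate 2 than elsewhere included Hspb8, Hspa12a, Hspb1, Dnaja4, Hspb11 and Dnajc9, a histone chaperone, with counts of 7, 46 and 7. In the second quantification, described further on, Hspb11 had 4.34, 6.01 and 6.90 TPM in replicates 1, 2 and 3, highest in replicate 3. The others named stayed highest in replicate 2 there. Serpinh1, the collagen chaperone HSP47, which is no member, had counts of 1, 2268 and 5.

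Chromatin-associated RNA holds transcripts still being made and spliced. Over all members, transcripts annotated protein_coding held 51.4% ± 6.1 of the TPM, retained_intron transcripts 31.9% ± 5.2, processed_transcript models 14.8% ± 1.2 and nonsense-mediated-decay models 1.90% ± 0.43 (SD, n = 3). Over all genes with a protein_coding transcript the shares were 50.5%, 36.7%, 8.64% and 4.01%. A sum over the class is carried by the highest members: Dnajc7 had 82.1% ± 2.8 and Dnaja1 78.3% ± 3.7 of its TPM in processed_transcript models. Only 14.2 of the 66.3 TPM of Dnaja1 belonged to protein_coding models, and 16.3 of the 89.4 TPM of Dnajc7.

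**Figure D3:**
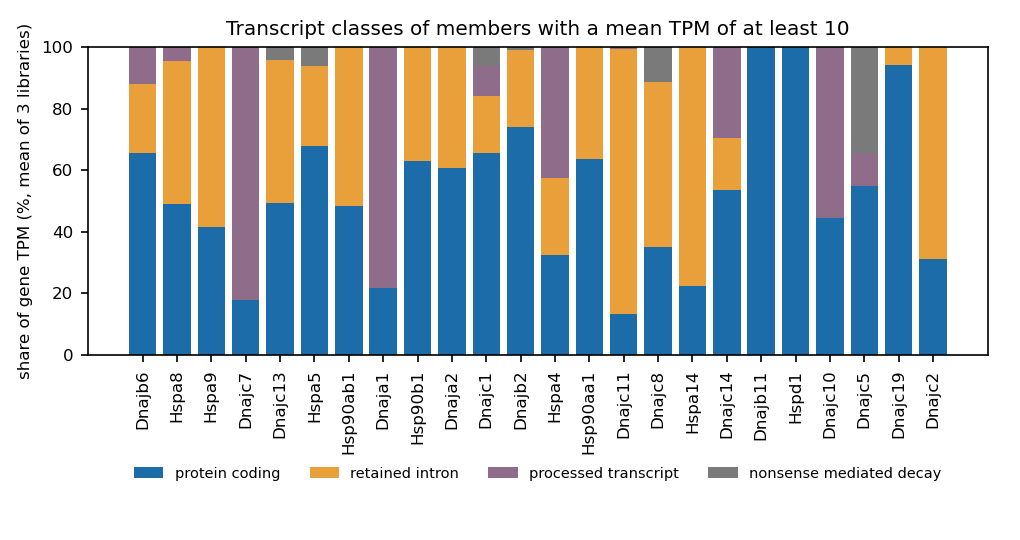
Stacked share of gene TPM by annotated transcript class (percent, mean of 3 libraries) for the members with a mean of at least 10 TPM, in falling order of level. Dnajc7 and Dnaja1 are mostly processed transcript, Dnajc11 is 85.9% retained intron, and Dnajb11 and Hspd1 have only protein_coding models in the annotation.

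Whether retained-intron or protein-coding models prevailed was tested with limma on log2 of (retained_intron TPM + 0.1) over (protein_coding TPM + 0.1), across 4311 genes with both classes and a summed mean of at least 5 TPM. Of 33 members with both classes, 23 were tested. Retained-intron models were called higher for 5 of 23 members, against 24.3% of all genes tested, and protein-coding models for 7 of 23, against 25.6% of all genes tested (Benjamini-Hochberg adjusted p under 0.05 over the 4311 genes). The median log2 ratio was -0.10 in members and -0.06 in all genes tested. The members' counts are near the background. They depended on the setting: the 5 and 7 became 2 and 5 without replicate 3, 10 and 7 with kallisto TPM, and 3 and 15 with expected counts.

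Dnajc11 led the retained-intron side, with log2 ratios of 2.79, 2.31 and 2.87 in replicates 1, 2 and 3 (2.66 ± 0.22 SE, limma adjusted p = 0.00349). Hspa14 (1.78 ± 0.24), Dnajb5 (1.60 ± 0.23), the ribosome-associated Dnajc2 (1.13 ± 0.19) and Dnajb14 (0.97 ± 0.27) followed, with limma adjusted p of 0.00773, 0.00831, 0.0124 and 0.0406. The calls of Dnajc11 and Dnajb5 held in 9 of 9 alternative settings, those of Dnajc2 in 8 and Hspa14 in 7 of 9, and that of Dnajb14 in 2 of 8. Hspa14 shares 8264 bases with Gm45902 on its own strand.

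Dnajc19, part of the mitochondrial import motor, led the protein-coding side, with log2 ratios of -3.08, -3.47 and -6.88 in replicates 1, 2 and 3 (-4.47 ± 0.83 SE, limma adjusted p = 0.0151). The replicate 3 value is a retained-intron level of 0 set against the pseudocount. Dnajb4 gave -3.19 ± 0.21, Dnajc1 -1.83 ± 0.26, Dnajc14 -1.73 ± 0.28, Dnajb6 -1.56 ± 0.24, Dnajb2 -1.54 ± 0.20 and Hspa5 -1.41 ± 0.31, with limma adjusted p between 0.00292 and 0.0221. Dnajb4 and Dnajc1 kept their calls in 9 of 9 alternative settings, and Hspa5 in 6 of 9. Dnajc14 turned round with kallisto values, to 0.73 (limma adjusted p = 0.0403).

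**Figure D4:**
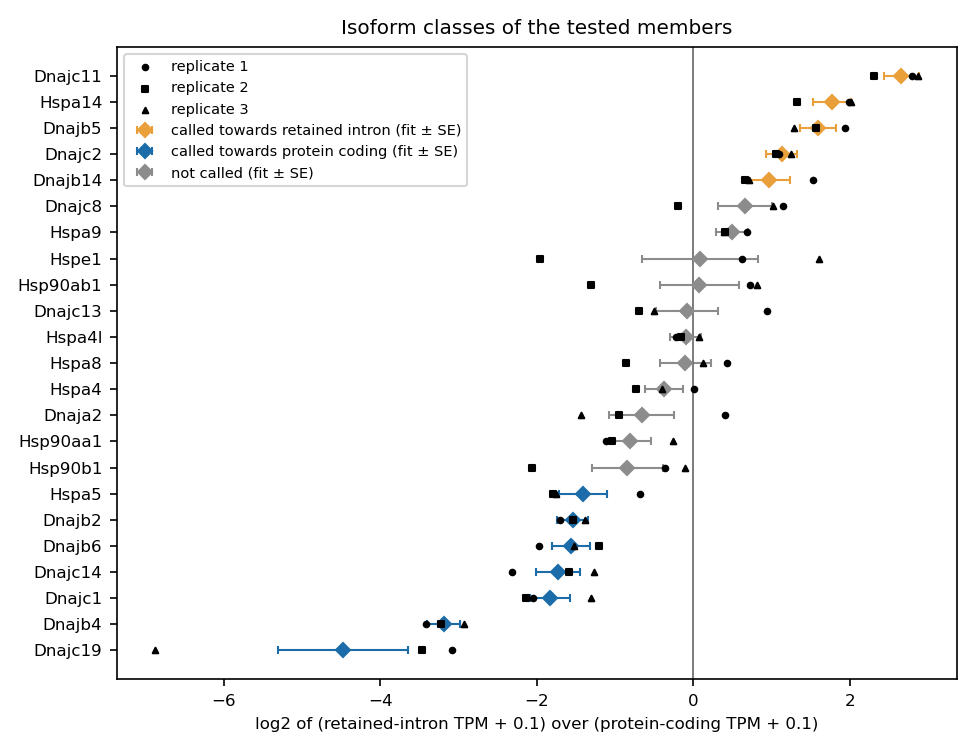
Fitted log2 ratio of retained-intron to protein-coding TPM with its SE for the 23 tested members, coloured by call, and the 3 libraries as small black symbols. Orange marks the 5 members called towards retained intron, blue the 7 called towards protein coding, and 11 grey ones were not called.

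The 11 members without a call include all 3 HSP90 genes and Hspa8 and Hspa9. In Hsp90ab1 the log2 ratio was 0.72, -1.31 and 0.81 in replicates 1, 2 and 3, and its main coding transcript had 16.3, 70 and 21.6 TPM. Hspe1 showed the same order, with -1.96 in replicate 2 and 0.62 and 1.61 in replicates 1 and 3. In both genes, and in the uncalled Hspa8 and Dnajc8, replicate 2 alone lay on the protein-coding side. Hspa8 gave 0.43, -0.86 and 0.13 in replicates 1, 2 and 3, and Dnajc8 gave 1.15, -0.20 and 1.01.

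A second deposited quantification, in kallisto layout, gave the same broad order with marked exceptions. Of the 61 members with at least 1 TPM in either table, 51 agreed within 1 log2 unit on the log2(TPM + 0.1) scale, and 46 were higher in the kallisto table. Hspa12b had 4.41, 21.9 and 19.8 TPM in replicates 1, 2 and 3 there, against 0.27, 0.88 and 0.07 TPM in the gene table. Nearly all of it lay in 1 short model, Hspa12b-202, with a mean of 15.1 TPM. Dnajc12, Dnajc28, Hspbp1 and Hspb11 followed, with log2 differences of 2.89, 2.62, 2.04 and 1.96. The other 5 members past 1 log2 unit were Dnajc14, Hspe1, Dnajb6, Dnajc15 and Dnaja2, with differences of 1.30, 1.27, 1.24, 1.16 and 1.0008. Dnajb6 had 321, 430 and 422 TPM in the kallisto table, against 147, 170 and 181 TPM in the gene table, and was the highest member in both. Of the 61 members, these 10 differed most on the log2 scale, and the dependence was not confined to them. The mean TPM of 32 of 74 members moved by more than its SD over libraries with kallisto TPM. With posterior mean TPM, 15 did so.

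**Figure D5:**
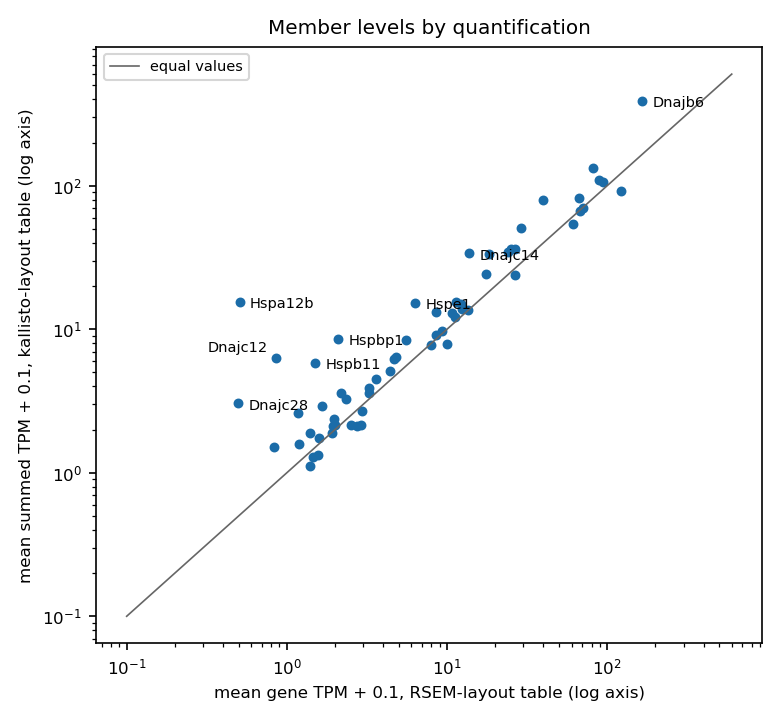
Mean level of each member in the kallisto-layout table (vertical) against the RSEM-layout gene table (horizontal), both as TPM + 0.1 on log axes, for the 61 members with at least 1 TPM in either. The line marks equal values, and the 8 members farthest from it are named, with Hspa12b highest above it.

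Genes that work with the members were taken from lists by role. Beside their counts at 10 TPM in every library, 16.8% of genes with a protein_coding transcript reached that level. Of 7 genes of heat shock factors and their binding proteins, 1 had at least 10 TPM in every library. This was Hsf1, the master regulator of the heat shock response, with 12.9, 19.3 and 21.01 TPM in replicates 1, 2 and 3. Hsbp1, which binds HSF1, averaged 13.0 TPM and Hsf2 5.43 TPM, the lowest detected gene was Hsf5 (0.08 TPM), and Hsf2bp was undetected. In the isoform test, 1 of 2 tested was called, Hsf1 towards retained intron (log2 ratio 1.45 ± 0.28 SE, limma adjusted p = 0.0158). Of all genes tested, 24.3% were called towards retained intron and 25.6% towards protein coding. Among J-domain genes outside the symbol rule, Gak (65.8 TPM) and Sec63 (18.7 TPM) were highest, and Hscb averaged 0.95 TPM.

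Of 34 cochaperone genes, 10 had at least 10 TPM in every library and 1, Cryaa, was undetected. Bag6, which guards membrane proteins in the cytosol, averaged 95.5 ± 20.9 TPM (SD, n = 3). Chordc1, an HSP90 partner, averaged 40.2 ± 11.9 TPM (SD, n = 3). The third by mean, Serpinh1 (30.5 TPM), rests on replicate 2, and Bag2 (0.617 TPM) was the lowest detected. Stip1, which links HSP70 to HSP90, had 20.2, 22.3 and 20.8 TPM in replicates 1, 2 and 3. Of 14 tested, Ppid (2.38) and Stub1 (0.91) were called towards retained intron, and Pih1d1 (-5.57), Cdc37l1 (-3.997) and Unc45a (-1.49) towards protein coding (limma, log2 ratios), against 24.3% and 25.6% of all genes tested.

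Of 18 genes of the cytosolic chaperonin, prefoldin and mitochondrial quality control, 9 had at least 10 TPM in every library and none was undetected. Cct8 (44.3 TPM), Cct4 (35.5 TPM) and Cct3 (27.2 TPM), subunits of the cytosolic chaperonin, were highest, and Pfdn1 was lowest (2.61 TPM). Of 10 tested, Cct4, Cct3 and Tcp1 were called towards retained intron (1.95, 1.58 and 1.36) and Trap1, the mitochondrial HSP90, and Vbp1 towards protein coding (-6.72 and -1.60; limma, log2 ratios), against 24.3% and 25.6% of all genes tested. Among the cytosolic chaperonin subunits, only Cct7 (12.1 TPM) averaged less than the mitochondrial Hspd1 (12.4 TPM).

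Of 20 ER-stress genes with values, 10 had at least 10 TPM in every library. Ppp1r15a, which restores translation after stress, had 95.4, 63.0 and 92.0 TPM in replicates 1, 2 and 3. Ern1, the sensor IRE1, averaged 52.8 TPM, Canx 51.5 TPM, and Sdf2l1 was lowest with 1.15 TPM. Of 12 tested, 5 were called towards protein coding (Pdia3, Trib3, Selenos, Atf6 and Xbp1, with log2 ratios from -3.22 to -0.84; limma) and none towards retained intron, against 25.6% and 24.3% of all genes tested. Of the 20 genes, 17 were highest in replicate 2, where 77.1% of genes with a protein_coding transcript and a mean of at least 1 TPM also were.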

How the data were processed

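Chromatin-fraction, ribosomal-RNA-depleted total RNA of 3 libraries of 1 group was analysed. Per the file headers, the authors deposited gene and transcript tables in RSEM layout with expected counts and TPM, and transcript tables in kallisto layout with estimated counts and TPM, on mm10 with GENCODE M21. No source used here gives the aligner, tool versions or strand setting. Rows naming no gene held 0.269% to 1.94% of counts and were left out. Members and gene lists were chosen with earlier results of these data known. Named genes are all HSP90, HSP70, chaperonin and small HSP members, the 12 highest DNAJ genes, the lowest, undetected, called, steadiest and most variable ones, and the highest, lowest and undetected genes of each list. A member counted as undetected had at most 3 expected counts in every library; counts of 0 and their upper limits cover counting error only. Isoform classes were tested with limma 3.58.1 in R 4.3.3 (pseudocount 0.1 TPM, mean of at least 5 TPM, checked on simulated data), TMM factors came from edgeR 4.0.16, and the rest from Python 3.11.15 with pandas 2.3.3 and scipy 1.17.1. Total counts per library were 12602702 to 17222239. Alternatives were kallisto TPM, posterior mean TPM, CPM, other pseudocounts and filters, and each library left out. One listed gene is not reported here.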

Additional observations from a re-analysis of the deposited data

Results flagged for a closer look

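Signal was also present in genes whose names resemble the members but that the rule leaves out. Hspg2, the basement membrane proteoglycan perlecan, had expected counts of 0, 823 and 1 in replicates 1, 2 and 3, beside the stromal genes that were high in replicate 2. Of 15 pseudogenes of these names, 3 passed 3 counts in some library. Hspe1-ps5 had 25, 18 and 7 expected counts, Hspe1-ps2 had 23, 9 and 10, and Hspd1-ps3 had 1.3, 3.58 and 5.78, in replicates 1, 2 and 3. In replicate 3 the parent gene Hspe1 had 14 counts, close to the 10 and 7 of these 2 copies; whether reads of the parent were assigned to them was not tested. The groups of 3 libraries are too small for a test of single outlying samples.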

How the results depend on the processing

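The count of members at 10 TPM or more, 18, became 29 with CPM, which is not per length. Subfamily medians moved by more than their SD with kallisto TPM for HSP70 and HSP110 (6.16 against 3.77 TPM), DNAJA (40.3 against 21.7), the other Hsp symbols (8.46 against 2.16) and all members (5.17 against 3.18), and with posterior mean TPM for HSP70 and HSP110 (4.95) and the other Hsp symbols (4.33). Of the 7 pairs, Hspd1 over Hspe1 reversed, to a log2 ratio of -0.0441 with kallisto TPM. Members called towards retained intron, 5, became 3 with expected counts, 10 with kallisto TPM and 2 to 5 with a library left out; over all genes, 1049 became 1810 with kallisto TPM and 351 to 901 with a library left out. Without replicate 3, 2 members and 351 genes were called, and without replicate 1, 676 genes. Members called towards protein coding, 7, became 15 with expected counts, and over all genes 1104 became 2408 with expected counts and 473 to 849 with a library left out, lowest without replicate 3. Fewer libraries leave fewer degrees of freedom; for the other changes the cause was not tested. Among members called under either setting, the log2 ratio turned with expected counts for Hspa9 (-2.18), Hsp90ab1 (-2.04) and Dnajb14 (-0.30). With kallisto TPM it turned, among members called under either setting, for Dnajc13 (1.06), Dnaja2 (1.30), Hspa4 (1.11), Dnajc14 (0.73), Hspe1 (-2.59) and Dnajb14 (-0.0299); Hsp90aa1 (0.13), Hspa8 (0.32) and Hsp90ab1 (-0.37), called under neither, also changed sign. The median coefficient of variation, 0.388, was 0.247 with TMM-scaled CPM and 0.231 with kallisto TPM, and members highest in replicate 2, 46, were 30 with the first. The promoter count, 16, was 4 with 3 units. Protein sequences were not used here, so a planned look at them was not run. Depth limits low members such as Hspb1, with counts of 8, 35 and 6 in replicates 1, 2 and 3.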
